A study of Homo sapiens with 11 samples.

Results

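The 10 genes described here encode aldehyde dehydrogenases (ALDH), and were taken as the rows of the deposited table whose gene symbol was ALDH1A1, ALDH1A3, ALDH1B1, ALDH1L2, ALDH2, ALDH3A1, ALDH3A2, ALDH7A1, ALDH9A1 or ALDH18A1. All 10 were found among the 60605 features of the table. RNA was sequenced after poly(A) selection in 11 libraries of ARPE-19, a widely used human cell line derived from the retinal pigment epithelium (RPE). Every group was a stable line of this same parent, taken after 4 days of expression of an open reading frame. The control expressed GFP, a fluorescent protein (3 libraries), and the others expressed a single factor (Oct4, Sox2 or Klf4) or the 3 factors at once (OSK), with 2 libraries each. The library names of all factor lines also carry the tag mC, which those of GFP lack, and its meaning is not given here. Whatever it stands for cannot be told apart from the factors in comparisons with GFP. No other alteration is named in the labels. Per the series' design text, the experiment asked whether these factors induce a set of candidate oxidative effectors. The labels state neither the species of the reading frames nor the number of clones in a line, and nothing says that replicates came from separate cultures, so p-values measure only the spread between these libraries. In bulk RNA, fewer cells expressing a gene and less RNA per cell cannot be told apart.

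Aldehyde dehydrogenases oxidise reactive aldehydes to acids with NAD or NADP as the acceptor of electrons. Some members make a signal, as the retinaldehyde dehydrogenases that produce retinoic acid, while others clear toxic products of lipid peroxidation, ethanol or amino acid breakdown, and others feed folate and proline metabolism. The RPE meets retinaldehyde in the visual cycle and lipid aldehydes from oxidised photoreceptor membranes, which is why these enzymes are studied in this tissue.

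Values are normalised counts, the authors' reads per gene divided by 1 factor per library. Recovered reads ran from 15053300 to 19791775 per library. Between 25853 and 26971 features had a read in 9 libraries, whereas GFP replicate 1 had 42956 and OSK replicate 1 had 32493. The delivered genes were highest in the lines labelled for them: POU5F1, the gene of Oct4, had at least 66823 normalised counts in the Oct4 line and at most 446 in libraries not given it. OSK had less of it, 19020 and 19542. SOX2 had 17764 and 17582 in OSK against 29106 and 29141 in the Sox2 line. KLF4 had 24470 and 24202 in OSK against 24205 and 22142 in the Klf4 line. Between OSK and the Oct4 or Sox2 line, the amount of a factor and the combination therefore cannot be told apart. Markers of RPE were checked against the label. RPE65, the isomerase of the visual cycle, had at most 4.63 normalised counts in any library, and the carrier TTR at most 4.97. MITF, OTX2, PMEL and TYRP1 were measured in all libraries. The summed level of the 16 RPE markers was 33597.5 to 37232 normalised counts in GFP, 18554.5 to 19078 in Oct4, 21535 to 22236 in Sox2, 25766 to 28774 in Klf4 and 15972 to 16282 in OSK. KRT8 and KRT18, keratins of many epithelia, made up 55.6% to 61.6% of that sum in GFP and 88.2% in both Sox2 libraries. Over the 14 other markers the sum was 12893 to 16527 in GFP, 4455.5 to 5073 in Oct4, 2550.2 to 2625 in Sox2, 8170 to 9833 in Klf4 and 5708.5 to 6072 in OSK, so that without the keratins Sox2 was lowest.

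The promoters of ALDH1A1, ALDH1A3 and ALDH3A2 are shown first, so that their upstream sequence can be set side by side. These 3 members were lower at a limma adjusted p under 0.05 in the Oct4, Sox2 and OSK lines only (ALDH1B1 in these and in Klf4). In Klf4, ALDH1A1 was also lower but short of that threshold (log2 change -1.01; limma adjusted p = 0.0626), while ALDH1A3 and ALDH3A2 overlapped with GFP. Each run is the 250 bases before the transcription start in RefSeq's GRCh38.p14 annotation, 5′ to 3′ on the gene's strand. Capitals mark matches to ATGCAAAT (the octamer bound by Oct4), to ACAATG or ACAAAG (core letters bound by SOX factors) and to GGGNGNGGC (letters of a KLF site, which also cover the GC box GGGCGGGGC), searched on both strands. The windows lie at chr9:72953054-72953303 on the minus strand for ALDH1A1, at chr15:100879581-100879830 on the plus strand for ALDH1A3 and at chr17:19647886-19648135 on the plus strand for ALDH3A2. ALDH3A2 has a pair of windows in RefSeq, and only the upstream one, which ends just before the annotated gene, is printed. The other lies inside the annotated gene, and its matches are given below. The printed windows of ALDH1A1 and ALDH1A3 also lie inside the gene spans given below, so they are upstream of a RefSeq start only.
ALDH1A1: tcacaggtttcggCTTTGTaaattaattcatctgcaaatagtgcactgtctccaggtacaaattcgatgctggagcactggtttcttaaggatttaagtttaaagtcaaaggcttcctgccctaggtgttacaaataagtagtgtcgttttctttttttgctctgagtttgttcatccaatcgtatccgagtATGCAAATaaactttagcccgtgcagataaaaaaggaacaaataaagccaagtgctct
ALDH1A3: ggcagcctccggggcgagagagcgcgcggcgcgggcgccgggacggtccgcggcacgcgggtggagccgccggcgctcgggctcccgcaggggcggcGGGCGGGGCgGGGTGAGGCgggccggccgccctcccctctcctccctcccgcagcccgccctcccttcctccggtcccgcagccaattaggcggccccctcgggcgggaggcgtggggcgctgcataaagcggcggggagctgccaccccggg
ALDH3A2: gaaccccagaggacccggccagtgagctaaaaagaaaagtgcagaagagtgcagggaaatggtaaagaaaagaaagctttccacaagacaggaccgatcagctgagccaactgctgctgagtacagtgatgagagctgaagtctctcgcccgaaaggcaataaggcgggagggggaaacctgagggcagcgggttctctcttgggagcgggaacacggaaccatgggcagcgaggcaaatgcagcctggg

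The ALDH1A1 window was AT-rich, with 38.4% G and C against a median of 58.0% over 35116 promoter windows of the same length. It held the octamer 58 bases before the start, and ACAAAG on the opposite strand 237 bases before it. The ALDH1A3 window had 82.4% G and C and 38 CpG sites, and 2 matches to the KLF letters. The printed ALDH3A2 window had 55.6% G and C and no match. The other ALDH3A2 window (chr17:19648501-19648750, plus strand) had 73.2% G and C and 22 CpG sites, and held 3 matches to the KLF letters, 173, 72 and 23 bases before its start. RefSeq windows were found for 7 of the 10 members, 8 windows in all with the pair of ALDH3A2, and for ALDH1L2, ALDH2 and ALDH3A1 there was none. The octamer was in 1 of the 8 and in 1.63% of all windows. ACAATG was in 1 of the 8 and in 9.29% of all windows, ACAAAG in 1 and 13.7%, and the KLF letters in 5 and 28.8%. A match is a run of letters and no evidence that a factor was bound there.

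All 10 members passed the filter of at least 10 normalised counts in at least 2 libraries, as did 18828 genes. Changes are log2 differences of group means on log2(value + 1), tested with limma over all these genes with Benjamini-Hochberg adjustment, and a gene is called at an adjusted p under 0.05. Against GFP, 7 members were called in the Oct4 line, 2 higher and 5 lower, where 37.3% of all genes tested were called (20.1% higher, 17.2% lower). In the Sox2 line 7 were called and all 7 were lower, against 41.6% of all genes (21.7% higher, 19.9% lower). In the Klf4 line 3 were called, 1 higher and 2 lower, against 33.5% (17.6% higher, 16.0% lower). In OSK 4 were called, all lower, against 39.7% (19.7% higher, 20.0% lower). The members' median change was -0.64 in Oct4, -0.84 in Sox2, -0.26 in Klf4 and -0.10 in OSK. The medians of all genes lay between -0.02 and -0.01. The Sox2 median is the same if ALDH3A1, close to no reads in Sox2, is set at 3 reads per library there, a 6.47-fold fall. The 4 comparisons share the GFP libraries.

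**Figure D1:**
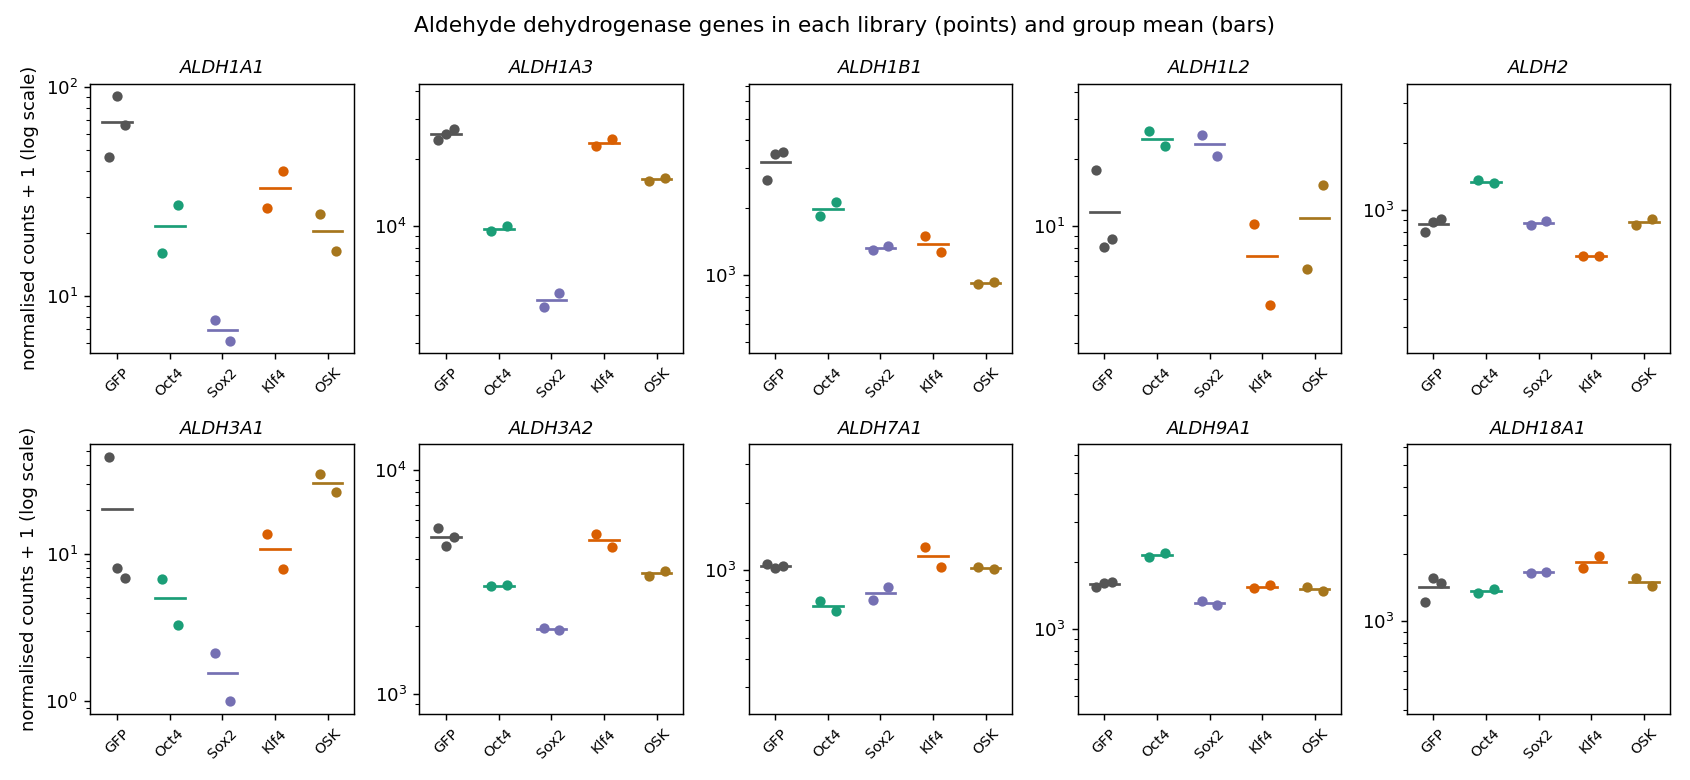
Level of each of the 10 genes in each library, as normalised counts plus 1 on a log axis, with points for libraries coloured by line and bars at the group means. ALDH1A3 lay between 4320 and 27077 normalised counts, while ALDH1A1, ALDH1L2 and ALDH3A1 stayed under 100 in every library.

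ALDH1A3 and ALDH1A1 are retinaldehyde dehydrogenases, which make retinoic acid. ALDH1A3 (chr15:100877714-100916626, plus strand, GENCODE 29 on GRCh38) had 24240.1, 25865 and 27077 normalised counts in GFP replicates 1, 2 and 3. It had 9453 and 9983 in Oct4, 4319.6 and 4998 in Sox2, 22723 and 24448 in Klf4, and 15935 and 16352 in OSK. The Oct4, Sox2 and OSK libraries all lay below the GFP libraries and did not overlap with one another, while a Klf4 library lay within the GFP range. The mean fell 2.65-fold in Oct4 (log2 change -1.40, SE 0.08; limma adjusted p = 1.32e-09) and 5.52-fold in Sox2 (-2.47, SE 0.08; limma adjusted p = 1.79e-12). It fell 1.59-fold in OSK (-0.67, SE 0.08; limma adjusted p = 4.65e-06). In Klf4 the log2 change was -0.12 with a 95% interval of -0.29 to 0.04, and was not called (limma adjusted p = 0.252). From high to low the order was GFP, Klf4, OSK, Oct4 and Sox2. In that order GFP and Klf4 were the only neighbours whose difference was not called.

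The ALDH1A3 locus also carries an antisense feature, ENSG00000259583, which shares 1585 bases with ALDH1A3 exons, 27.5% of their length. The sources used here do not say whether reads were counted by strand, so reads of the 2 features cannot be told apart with certainty. The antisense feature had 3129 to 3417 normalised counts in GFP, 646 and 745 in Oct4, 248 and 315 in Sox2, 2055 and 2187 in Klf4, and 1259 and 1282 in OSK. It fell in all 4 lines, by 2.24, 3.55, 0.63 and 1.37 on the log2 scale in the order just given (SE 0.09 each; limma adjusted p at most 8.1e-05). Its level was 12.1% to 13.6% of that of ALDH1A3 in GFP, 8.95% to 9.05% in Klf4, 7.84% to 7.90% in OSK, 6.83% to 7.46% in Oct4 and 5.74% to 6.31% in Sox2. The ratio was lower in every factor line than in any GFP library. In Klf4 the antisense feature was thus called lower while ALDH1A3 was not.

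**Figure D2:**
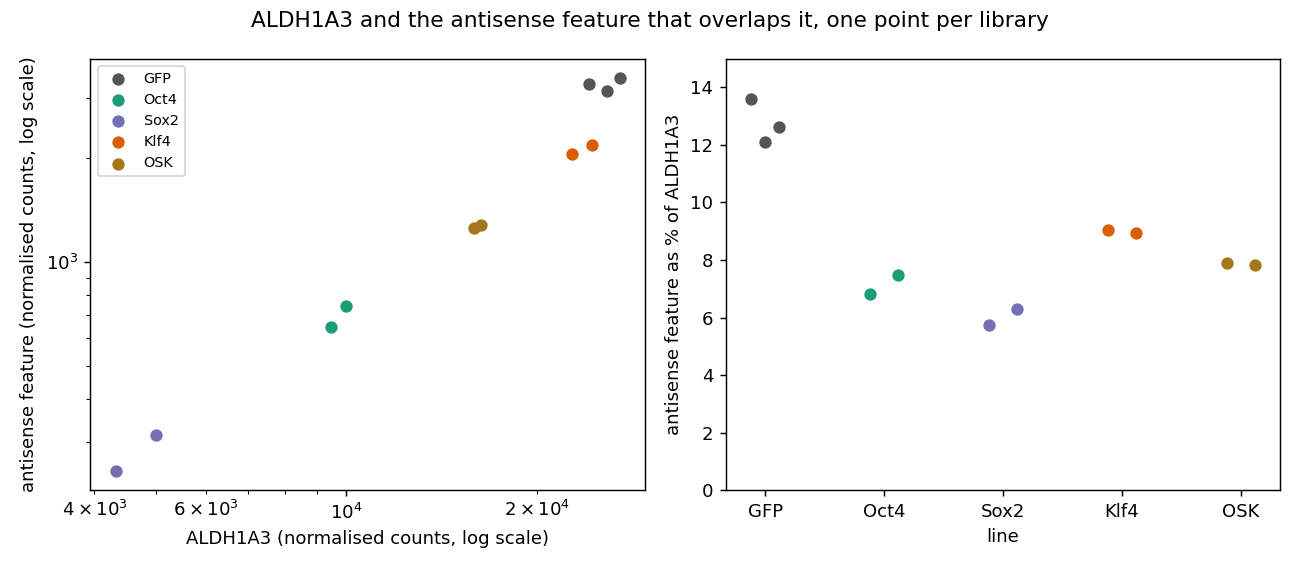
ALDH1A3 on the horizontal axis against the overlapping antisense feature on the vertical axis, both in normalised counts on log axes, 1 point per library coloured by line. GFP libraries sit at the upper right and Sox2 libraries, at 4320 to 4998 and 248 to 315, at the lower left.

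ALDH1A1 (chr9:72900662-73080442, minus strand), another cytosolic enzyme of the retinaldehyde group, was measured at far fewer reads. It had 45.7, 90.0 and 65.1 normalised counts in GFP, 15.1 and 26.3 in Oct4, 6.73 and 5.14 in Sox2, 25.4 and 38.9 in Klf4, and 23.9 and 15.4 in OSK. All libraries of the 4 factor lines lay below the lowest GFP library. The mean fell 3.23-fold in Oct4 (log2 change -1.64, SE 0.40; limma adjusted p = 0.00389), 11.3-fold in Sox2 (-3.25, SE 0.40; limma adjusted p = 6.1e-06) and 3.41-fold in OSK (-1.70, SE 0.40; limma adjusted p = 0.00275). In Klf4 the log2 change was -1.01 with a 95% interval of -1.86 to -0.17 and an adjusted p of 0.0626 by limma. It was called in Klf4 by edgeR with TMM factors (-1.05, adjusted p = 0.0466) and by limma without GFP replicate 1 (-1.26, adjusted p = 0.0233). Without Oct4 replicate 1 the Oct4 change was -1.26 and not called (limma adjusted p = 0.0699). These values rest on 6 to 89 reads per library.

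Level per length shows how far ALDH1A3 dominated the set. Divided by the length of all annotated exons, it had 4457 ± 247 normalised counts per kb (SD, n = 3) in GFP and 807 ± 83.1 (n = 2) in Sox2. It made up 61.2% of the summed level of the 10 members in GFP, 64.1% in Klf4, 60.3% in OSK, 42.3% in Oct4 and 32.3% in Sox2. Among the 15695 tested genes with a length, it ranked 77 in GFP and 664 in Sox2. The sum itself was 7288 ± 405 per kb in GFP, 6375 ± 140 in Klf4, 4641 ± 37.3 in OSK, 3978 ± 153 in Oct4 and 2499 ± 85.8 in Sox2. Without ALDH1A3 the sum was 2831 ± 161 in GFP, 2294 ± 88.2 in Oct4, 2289 ± 70.8 in Klf4, 1844 ± 13.8 in OSK and 1692 ± 2.76 in Sox2. The sum of the other 9 genes was therefore also lower in each factor line than in any GFP library, by this description without a test. This holds for the chosen members. Over 19 ALDH genes, with those described below added, Oct4, Sox2 and OSK were lower than GFP but Klf4 was not. The sum was 9272 and 8843 per kb in Klf4 against 8142 to 9240 in GFP. ALDH1A3 made up 50.9% of the 19-gene sum in GFP and 21.6% in Sox2, where ALDH4A1 had more per kb (864).

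**Figure D3:**
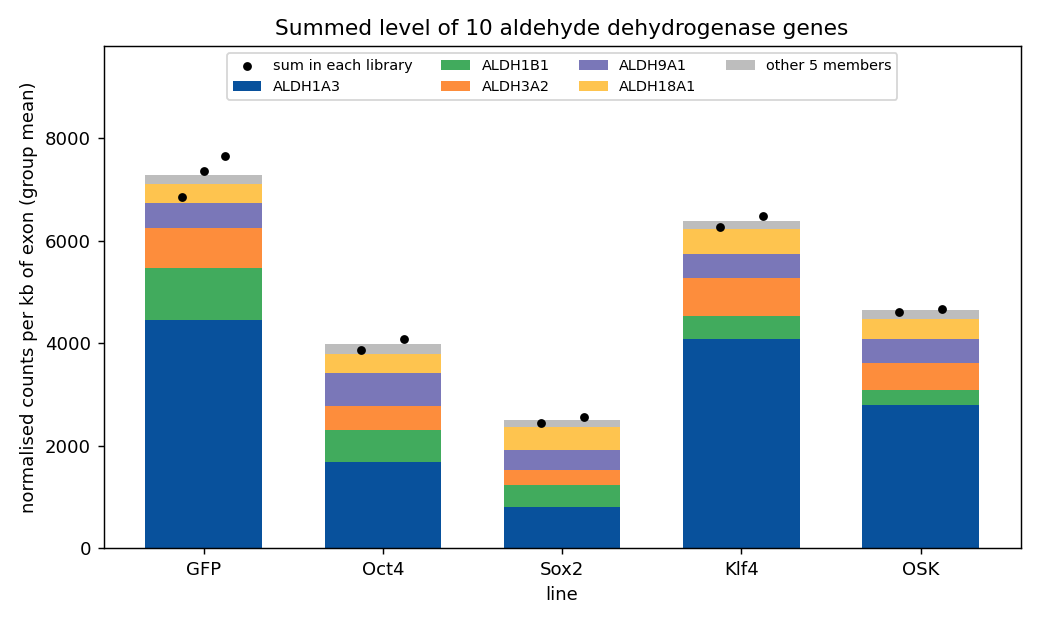
Stacked bars of group mean level per kb of exon for ALDH1A3, ALDH1B1, ALDH3A2, ALDH9A1, ALDH18A1 and the other 5 members together, with a black point for the sum in each library. ALDH1A3 is the largest segment in all 5 lines, and the sum falls from 7288 in GFP to 2499 in Sox2.

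ALDH2 and ALDH1B1 are mitochondrial enzymes that oxidise acetaldehyde, and ALDH2 also clears the lipid aldehyde 4-hydroxynonenal. ALDH1B1 (chr9:38392664-38398661, plus strand) was the only member called lower in all 4 factor lines. It had 2642, 3455 and 3529.6 normalised counts in GFP, 1832 and 2108 in Oct4, 1289 and 1345 in Sox2, 1489 and 1269 in Klf4, and 908 and 927 in OSK. Every factor library lay below every GFP library, and both OSK libraries lay below all others. The mean was 1.63-fold lower in Oct4 (log2 change -0.69, SE 0.11; limma adjusted p = 0.000112), 2.44-fold lower in Sox2 (-1.27; limma adjusted p = 1.3e-07) and 2.33-fold lower in Klf4 (-1.21; limma adjusted p = 4.24e-07). In OSK it was 3.50-fold lower (-1.79; limma adjusted p = 3.27e-09). OSK was below each single-factor line, by 1.10 on the log2 scale against Oct4 (limma adjusted p = 2.13e-06), by 0.52 against Sox2 (limma adjusted p = 0.00253) and by 0.58 against Klf4 (limma adjusted p = 0.00223). Sox2 and Klf4 differed by -0.06 with a 95% interval of -0.32 to 0.19 (limma adjusted p = 0.728).

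ALDH2 (chr12:111766887-111817529, plus strand) moved in opposite directions in 2 lines. It had 794, 880.1 and 916 normalised counts in GFP, 1361 and 1314 in Oct4, 855 and 896 in Sox2, 623 and 619 in Klf4, and 857 and 909.6 in OSK. Oct4 libraries lay above and Klf4 libraries below all others, and Sox2 and OSK overlapped with GFP. ALDH2 rose 1.55-fold in Oct4 (log2 change 0.63, SE 0.08; limma adjusted p = 7.64e-06). It fell to 72.0% of GFP in Klf4 (-0.47, SE 0.08; limma adjusted p = 0.000178). The log2 change was 0.02 in Sox2 (95% interval -0.14 to 0.19) and 0.04 in OSK (-0.13 to 0.20), and neither was called (limma adjusted p = 0.846 and 0.765). The OSK line, which received all 3 factors, thus had less ALDH2 than Oct4 (-0.60; limma adjusted p = 3.02e-05) and more than Klf4 (0.51; limma adjusted p = 0.000357).

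ALDH3A2 and ALDH3A1 act on longer aldehydes. ALDH3A2 (chr17:19648136-19677598, plus strand) is the fatty aldehyde dehydrogenase of the endoplasmic reticulum, whose loss causes Sjögren-Larsson syndrome. It had 5505 normalised counts in GFP replicate 1, 4578 in replicate 2 and 5041 in replicate 3. It had 3029.5 and 3055 in Oct4, 1974 and 1927 in Sox2, 5179 and 4541 in Klf4, and 3364 and 3550.5 in OSK. The pattern was close to that of ALDH1A3: Klf4 overlapped with GFP, and Oct4, Sox2 and OSK lay below. It fell 1.66-fold in Oct4 (log2 change -0.72, SE 0.08; limma adjusted p = 2.43e-06) and 2.58-fold in Sox2 (-1.37; limma adjusted p = 1.35e-09). It fell 1.46-fold in OSK (-0.54; limma adjusted p = 4.63e-05). In Klf4 the log2 change was -0.05 with a 95% interval of -0.22 to 0.12 (limma adjusted p = 0.665). Oct4 and OSK differed by 0.18 with a 95% interval of -0.00 to 0.37, which was not called (limma adjusted p = 0.109).

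ALDH3A1 (chr17:19737984-19748943, minus strand), known as a soluble protein of the cornea that oxidises lipid and aromatic aldehydes, was close to the limit of detection. It had 44.7 normalised counts in GFP replicate 1 but 7.08 and 5.83 in replicates 2 and 3, so that replicate 1 held 77.6% of the GFP signal. It had 5.81 and 2.29 in Oct4, 1.12 and 0 in Sox2, 12.7 and 6.86 in Klf4, and 33.6 and 25.3 in OSK. These values rest on 0 to 45 reads per library. GFP replicate 1 was the highest of all libraries, both OSK libraries came next, and both Sox2 libraries were lowest. The Sox2 libraries held 1 read of ALDH3A1 and the GFP libraries 58, a 39.5-fold ratio with an exact 95% interval of 6.81 to 1586 that covers counting error only. Without GFP replicate 1 the ratio was 13.3-fold (1.99 to 564). It was called with all GFP libraries (limma adjusted p = 0.00345) and without that library (limma adjusted p = 0.00613).

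The OSK change of ALDH3A1 depended on the same library. With all GFP libraries the log2 change was 1.15 with a 95% interval of -0.52 to 2.82 and was not called (limma adjusted p = 0.277). Without GFP replicate 1 it was 2.02 and called (limma adjusted p = 0.0164). Without both GFP replicate 1 and OSK replicate 1, the libraries with reads on the most features, it was 1.82 and not called (limma adjusted p = 0.103). Against Oct4, a comparison without GFP libraries, OSK had 7.27 times the mean level (log2 change 2.67, SE 0.86; limma adjusted p = 0.0208). That call was lost when Oct4 replicate 2 (2.15, adjusted p = 0.149), OSK replicate 1 (2.47, adjusted p = 0.11) or OSK replicate 2 (2.87, adjusted p = 0.0695) was left out of limma. Against Sox2, the 54 reads of OSK gave a 60.7-fold ratio (exact 95% interval of counting error 10.4 to 2442; limma adjusted p = 0.000684). In Oct4 and Klf4 the log2 changes from GFP were -1.52 and -0.39, not called (limma adjusted p = 0.147 and 0.746), and became -0.65 and 0.48 without GFP replicate 1.

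**Figure D4:**
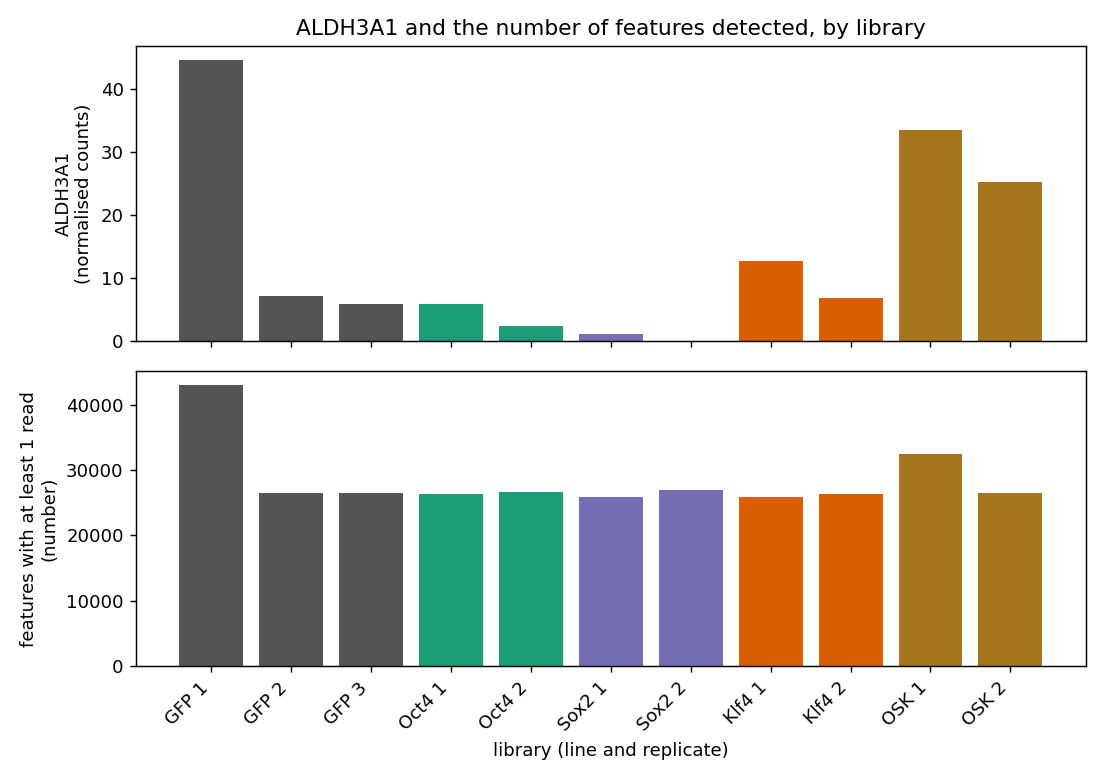
Upper bars give ALDH3A1 in normalised counts and lower bars the number of features with at least 1 read, for each of the 11 libraries. GFP replicate 1 is highest in both panels (44.7 and 42956), and OSK replicate 1 is second in both (33.6 and 32493).

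GFP replicate 1 stood apart in other weakly measured genes of the family too. Of the 19 ALDH genes, 5 averaged under 20 normalised counts over GFP replicates 2 and 3, and all 5 were highest in replicate 1 among the GFP libraries. Choosing genes by low values in replicates 2 and 3 favours this outcome, and ALDH3A1 is itself among the 5. The share over all genes chosen in this way was not computed. Its level over the mean of the other 2 was 2.27 for ALDH1L2, 6.92 for ALDH3A1, 5.52 for ALDH8A1, 10.0 for ALDH3B2 and 15.1 for ALDH1A2. Olfactory receptor genes, most of which are silent outside the nose, were seen with a read for 67.7% of 405 in that library and for 23.0% in OSK replicate 1. Elsewhere the share was 4.94% to 8.15%. The part of these extra reads in the ALDH3A1 values was not tested.

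The remaining members serve single pathways. ALDH1L2 (chr12:105019784-105084577, minus strand) is the mitochondrial 10-formyltetrahydrofolate dehydrogenase, which makes NADPH from folate-bound carbon. It had 16.9, 7.08 and 7.78 normalised counts in GFP, 25.6 and 21.8 in Oct4, 24.7 and 19.7 in Sox2, 9.25 and 3.43 in Klf4, and 5.42 and 14.3 in OSK. Oct4 and Sox2 libraries lay above all others. The log2 change was 1.18 in Oct4 (95% interval -0.00 to 2.37; limma adjusted p = 0.112) and 1.09 in Sox2 (-0.10 to 2.28; limma adjusted p = 0.135), not called. Without GFP replicate 1 both were called by limma, at 1.54 (adjusted p = 0.0315) and 1.45 (adjusted p = 0.0388). In Klf4 and OSK the log2 changes were -0.68 and -0.13 (limma adjusted p = 0.384 and 0.887). The level rests on 3 to 23 reads per library.

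ALDH7A1 (chr5:126531200-126595418, minus strand) is antiquitin, an enzyme of lysine breakdown that also oxidises betaine aldehyde. It had 1065, 1018 and 1049 normalised counts in GFP, 727 and 658 in Oct4, 737 and 843 in Sox2, 1265 and 1036 in Klf4, and 1034 and 1008 in OSK. Oct4 and Sox2 libraries lay below all others, and Klf4 and OSK overlapped with GFP. It fell to 66.4% of GFP in Oct4 (log2 change -0.59, SE 0.09; limma adjusted p = 8.13e-05) and to 75.7% in Sox2 (-0.40, SE 0.09; limma adjusted p = 0.0019). Without Sox2 replicate 1 the Sox2 change was -0.31 and not called (limma adjusted p = 0.0526). In OSK the log2 change was -0.03 with a 95% interval of -0.23 to 0.16 (limma adjusted p = 0.823), and OSK was 0.56 above Oct4 (limma adjusted p = 0.000271). Processed copies of ALDH7A1 exist, and those listed drew 4 to 11 reads per library together.

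ALDH9A1 (chr1:165662216-165698863, minus strand) oxidises aminoaldehydes on the way to carnitine and to GABA. It had 1536, 1598 and 1616 normalised counts in GFP, 2101 and 2189.5 in Oct4, 1329.5 and 1277 in Sox2, 1516 and 1578 in Klf4, and 1541 and 1472 in OSK. Oct4 libraries were above and Sox2 libraries below all others. It rose 1.36-fold in Oct4 (log2 change 0.44, SE 0.06; limma adjusted p = 5.18e-05) and fell to 82.3% in Sox2 (-0.28, SE 0.06; limma adjusted p = 0.00213). With TMM scaling over all features the Sox2 change was -0.21 and not called (limma adjusted p = 0.185). The log2 changes in Klf4 and OSK were -0.03 (95% interval -0.17 to 0.10) and -0.07 (-0.21 to 0.06).

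ALDH18A1 (chr10:95605929-95656706, minus strand) makes the proline precursor pyrroline-5-carboxylate from glutamate, and was called in 1 line. It had 1224, 1567 and 1478 normalised counts in GFP, 1343 and 1391 in Oct4, 1654 and 1656 in Sox2, 1728 and 1955 in Klf4, and 1565 and 1441 in OSK. Sox2 and Klf4 libraries all lay above the highest GFP library. ALDH18A1 rose 1.29-fold in Klf4 (log2 change 0.38, SE 0.09; limma adjusted p = 0.00517), a call lost without Klf4 replicate 2 (0.29; limma adjusted p = 0.0876). In Sox2 the log2 change was 0.23 (95% interval 0.03 to 0.42; limma adjusted p = 0.0653), and it was called without GFP replicate 2 (0.30; limma adjusted p = 0.0202). In Oct4 and OSK it was -0.05 and 0.09 (limma adjusted p = 0.714 and 0.516).

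**Figure D5:**
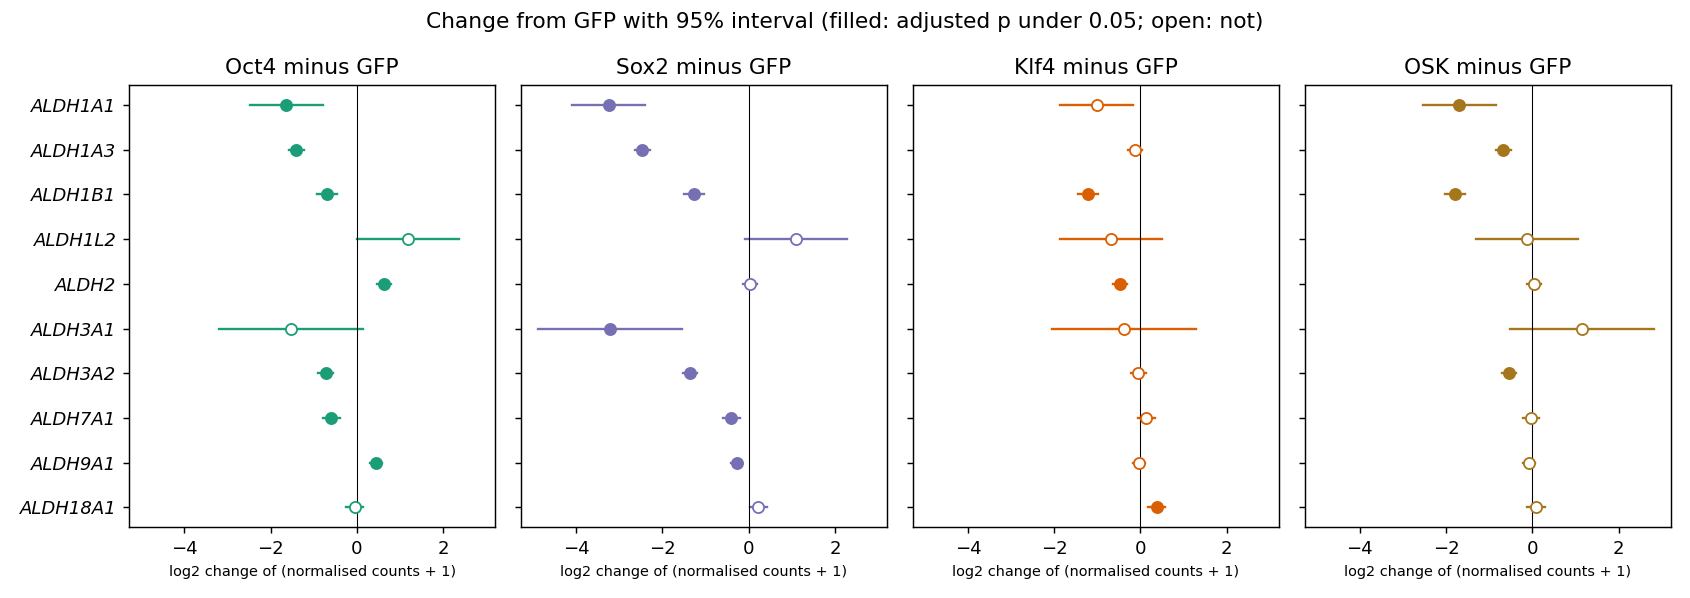
Log2 change from GFP of each member in each factor line, with 95% intervals; filled points have a limma adjusted p under 0.05. ALDH1B1 alone has filled points below 0 in all 4 lines, and the widest intervals belong to ALDH3A1, ALDH1L2 and ALDH1A1.

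The combined line was next set against each single-factor line. Against Oct4, 6 members were called, 3 higher in OSK (ALDH1A3, ALDH3A1 and ALDH7A1) and 3 lower (ALDH1B1, ALDH2 and ALDH9A1), where 40.3% of all genes were called (18.4% higher, 21.9% lower). Against Sox2, 7 were called, with ALDH1B1 lower and ALDH1A1, ALDH1A3, ALDH3A1, ALDH3A2, ALDH7A1 and ALDH9A1 higher, where 40.5% of all genes were called (20.0% higher, 20.5% lower). ALDH1A3 was 3.47-fold higher in OSK than in Sox2 (log2 change 1.80, SE 0.09; limma adjusted p = 1.95e-10), and ALDH3A2 1.77-fold (0.83; limma adjusted p = 1.34e-06). Against Klf4, 4 were called, with ALDH2 higher and ALDH1A3, ALDH1B1 and ALDH3A2 lower, where 21.5% of all genes were called (9.56% higher, 11.9% lower). ALDH1A3 in OSK was 68.5% of Klf4 (-0.55; limma adjusted p = 0.00022), and ALDH3A2 was 71.1% (-0.49; limma adjusted p = 0.000637). The OSK mean lay within the range of the 3 single-line means for 8 members, below it for ALDH1B1 and above it for ALDH3A1. The share of all genes within that range was not computed, so the count cannot be read as particular to the members. ALDH1A1 and ALDH1L2, among the 8, and ALDH3A1 had at most 89, 23 and 45 reads in a library. These comparisons share the OSK libraries, which had less POU5F1 and SOX2 than the Oct4 and Sox2 lines, as given above.

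Some of these calls hung on 1 library. ALDH1A1 in OSK over Sox2 (log2 change 1.55; limma adjusted p = 0.00942) was 1.25 without OSK replicate 1 (limma adjusted p = 0.0933) and 1.38 without Sox2 replicate 2 (limma adjusted p = 0.0586). ALDH7A1 (0.37; limma adjusted p = 0.00692) was 0.28 without Sox2 replicate 1 (limma adjusted p = 0.0991). ALDH9A1 in OSK over Sox2 (0.21; limma adjusted p = 0.026) was not called without any single Sox2 or OSK library, with limma adjusted p between 0.0514 and 0.156.

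The single-factor lines also differed from one another. Oct4 and Sox2 differed at 7 members, 6 of them higher in Oct4, where 33.4% of all genes were called (18.0% higher in Oct4, 15.4% lower). The log2 difference was 1.06 for ALDH1A3 (limma adjusted p = 9.47e-08) and 0.72 for ALDH9A1 (limma adjusted p = 7.69e-07). ALDH18A1 was the member lower in Oct4 (-0.28; limma adjusted p = 0.049). That call was lost under 14 of 23 alternatives, among them DESeq2 (adjusted p = 0.0588) and edgeR with median-of-ratios factors (adjusted p = 0.0578). With any Oct4 or Sox2 library left out the log2 difference was -0.30 to -0.25. Oct4 and Klf4 differed at 8 members, 4 in each direction, where 41.7% of all genes were called (21.8% higher in Oct4, 20.0% lower). ALDH2 was 2.15-fold higher in Oct4 than in Klf4 (log2 difference 1.10; limma adjusted p = 2.88e-08), while ALDH1A3 was at 41.2% (-1.28; limma adjusted p = 6.98e-09). Sox2 and Klf4 differed at 8 members, 2 higher in Sox2 and 6 lower, where 40.8% of all genes were called (20.1% higher in Sox2, 20.7% lower). ALDH1A3 in Sox2 was at 19.8% of Klf4 (-2.34; limma adjusted p = 6.97e-12). ALDH1L2 was higher in Oct4 and Sox2 than in Klf4 by 1.87 and 1.77 (limma adjusted p = 0.0219 and 0.0292), and without Klf4 replicate 2 by 1.26 and 1.17. These calls were lost under 5 and 7 alternatives, among them DESeq2 (adjusted p = 0.0599 and 0.0765).

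The remaining ALDH genes were described with the same fit. Of 9 further ALDH genes 7 were tested, and 0 rose and 4 fell in Oct4, 1 and 2 in Sox2, 2 and 1 in Klf4, and 2 and 1 in OSK. Over all genes tested 37.3% were called in Oct4, 41.6% in Sox2, 33.5% in Klf4 and 39.7% in OSK. ALDH3B1, a close relative of ALDH3A1 that acts on lipid aldehydes at membranes, had 2432, 2515 and 2815 normalised counts in GFP, 915 and 1230.4 in Oct4, 471 and 700.4 in Sox2, 15066 and 11089 in Klf4, and 6108.5 and 4889 in OSK. It rose 5.05-fold in Klf4 (log2 change 2.32, SE 0.16; limma adjusted p = 2.33e-08) and 2.12-fold in OSK (1.08; limma adjusted p = 6.07e-05). It fell by 1.28 on the log2 scale in Oct4 and by 2.17 in Sox2 (limma adjusted p = 1.24e-05 and 2.73e-08). ALDH4A1, which oxidises the proline breakdown product to glutamate, fell in Oct4 (-0.90), Klf4 (-0.91) and OSK (-1.62; limma adjusted p = 2.55e-08). In Sox2 its log2 change was 0.08 (limma adjusted p = 0.637). Another annotated gene on the same strand shares 41.1% of ALDH4A1 exon length. ALDH3B2 was among the 4 that fell in Oct4 (limma adjusted p = 0.0184), and was listed at 0 in both Oct4 libraries. Its GFP values were 29.8 normalised counts for replicate 1 but 3.03 and 2.92 for replicates 2 and 3. Replicate 1 thus held 83.35% of that signal. The mean of replicates 2 and 3 was 2.98, below the 3.46 that 3 reads stand for in the Oct4 libraries, so no fold is given.

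Genes that supply or use the products of these enzymes were counted next, from lists of general knowledge. The counts of each list below stand beside 37.3% of all genes called in Oct4, 41.6% in Sox2, 33.5% in Klf4 and 39.7% in OSK. No list was tested as a set. Of 23 genes of retinoid handling 19 were tested, and 6 rose and 3 fell in Oct4, 4 and 6 in Sox2, 5 and 6 in Klf4, and 3 and 6 in OSK. CYP26A1, which breaks retinoic acid down and is a known target of it, fell from 50.6 normalised counts in GFP to 7.12 in Sox2 (log2 change -2.96, SE 0.47; limma adjusted p = 8.52e-05) and to 16.4 in OSK (-1.59; limma adjusted p = 0.0129). In Oct4, where ALDH1A3 also fell, CYP26A1 had 60.4 and 67.5 against 36.7 to 57.7 in GFP (0.36; limma adjusted p = 0.59).

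All 6 genes of proline metabolism, the pathway of ALDH18A1, were tested. In Oct4 0 rose and 2 fell, in Sox2 2 and 2, in Klf4 2 and 2, and in OSK 2 and 1. PRODH, which starts proline breakdown, fell from 150 normalised counts to 27.1 in Oct4 (log2 change -2.45; limma adjusted p = 1.48e-06) and to 10.4 in Sox2 (-3.74; limma adjusted p = 9.19e-09). PYCR1, which completes proline synthesis, rose in Sox2 (0.54; limma adjusted p = 0.0123) and fell in Klf4 (-0.67; limma adjusted p = 0.00412).

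Of the 12 folate and one-carbon genes, 1 rose and 5 fell in Oct4, 5 and 3 in Sox2, 6 and 2 in Klf4, and 5 and 2 in OSK. MTHFD1L, the mitochondrial enzyme that releases formate, rose in all 4 lines, from 763 normalised counts in GFP to 985 in Oct4, 1717 in Sox2, 3085 in Klf4 and 3216 in OSK (log2 change 2.07, SE 0.08; limma adjusted p = 4.17e-11 for OSK). SHMT1, the cytosolic serine hydroxymethyltransferase, fell in Oct4 (-0.71), Sox2 (-0.87) and OSK (-0.22) and rose in Klf4 (0.25; limma adjusted p = 0.0173).

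Of 8 alcohol dehydrogenase and aldehyde oxidase genes 3 were tested, with 2 higher and 0 lower in Oct4, 0 and 1 in Sox2, 1 and 1 in Klf4, and 1 and 1 in OSK. AOX1, an oxidase that also turns aldehydes into acids, rose from 131 normalised counts in GFP to 1280.4 in OSK (log2 change 3.30, SE 0.15; limma adjusted p = 1.3e-10). It had 327 in Oct4, 216 in Klf4 and 134 in Sox2. ADH5, the formaldehyde-clearing dehydrogenase, rose in Oct4 (0.41) and fell in Sox2 (-0.41), Klf4 (-0.59) and OSK (-0.43; limma adjusted p at most 0.000472 over the 4).

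Of 5 genes that release fatty aldehydes 4 were tested, with 1 higher and 0 lower in Oct4, 3 and 0 in Sox2, and 1 and 1 in Klf4 and in OSK. SGPL1, whose product hexadecenal is a substrate of ALDH3A2, rose 3.03-fold in Oct4 (limma adjusted p = 7.66e-11) and by 1.00 on the log2 scale in Sox2 (limma adjusted p = 1.12e-08). ALDH3A2 was called lower in both lines. SGPL1 fell by 0.29 in Klf4 and by 0.30 in OSK (limma adjusted p = 0.00423 and 0.00292). In OSK ALDH3A2 was called lower too (-0.54; limma adjusted p = 4.63e-05). A link between these genes was not tested. FAR1, a fatty acyl-CoA reductase, rose in Sox2 (0.72), Klf4 (0.42) and OSK (0.53). HACL1, which splits 2-hydroxyacyl-CoA into an aldehyde, rose in Sox2 (0.49; limma adjusted p = 0.00819).

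Of 13 partner genes of lysine, choline, polyamine and carnitine metabolism 11 were tested. In Oct4 4 rose and 0 fell, in Sox2 3 and 2, in Klf4 2 and 3, and in OSK 5 and 1. DMGDH, a mitochondrial enzyme of choline breakdown, had 20.4 normalised counts in GFP, 100.2 in Oct4, 130.2 in Sox2 and 54.7 in OSK, with log2 changes of 2.33, 2.71 and 1.40 (limma adjusted p at most 0.00715). SAT1, which acetylates polyamines for breakdown, rose in all 4 lines and most in Klf4 (2.08; limma adjusted p = 4.52e-11). AADAT, an aminotransferase of lysine breakdown, rose in Sox2 (1.71), Klf4 (0.53) and OSK (1.91; limma adjusted p = 3.1e-08).

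The RPE markers are given beside the members as measured, and did not all move in the same direction. Of the 16, 13 were tested, and 2 rose and 9 fell in Oct4, 1 and 7 in Sox2, 1 and 5 in Klf4, and 1 and 9 in OSK. Over all genes 20.1% rose and 17.2% fell in Oct4, 21.7% and 19.9% in Sox2, 17.6% and 16.0% in Klf4, and 19.7% and 20.0% in OSK. PMEL, a pigment granule protein, was at 4094 to 6067 normalised counts in GFP and 101 to 180 in Sox2, where ALDH1A3 was lowest. MITF had 3263 to 3602.5 in GFP, 1786 and 1999.5 in Oct4, 790 and 747.5 in Sox2, 2343 and 2515 in Klf4, and 1590.3 and 1732 in OSK. Other RPE markers were higher in some lines than in GFP. MERTK had 58.7 to 64.55 in GFP, 136 and 163 in Oct4, and 122.5 and 131 in OSK. SLC16A8 had 9.93 to 25.3 in GFP and 48.8 and 58.4 in Oct4. OTX2 had 1804 to 1952 in GFP and 2372 and 2267 in Klf4. Markers of other cells were read in the same way. Blood cell markers summed to at most 34.8 and photoreceptor markers to at most 112 normalised counts, both highest in GFP replicate 1, and none of 4 blood cell markers passed the filter. CRX was at 0 in Oct4, Sox2 and Klf4. Fibroblast markers summed to 3012 to 4899 in GFP, 2591 to 3717 in Oct4, 7069 to 8429 in Sox2, 1012 to 1401 in Klf4 and 618 to 867 in OSK, nearly all of it COL1A1. Endothelial markers summed to 1091 to 1343 in GFP and 534.5 to 892 in the factor lines, mostly KDR, and 1 of the 3 tested fell in each line. Neural crest melanocyte markers summed to at most 64.8, with PAX3 at 0 in all 4 factor lines, and pluripotent cell markers to 364 to 493.5 in GFP and 168 to 354 in the factor lines. The part of any of these shifts in the members' changes was not tested.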

How the data were processed

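Poly(A) RNA libraries (NEBNext Ultra II RNA kit, per the labels' protocols) from 11 samples in 5 groups, taken from the sample titles, were analysed. The deposited values are a signal: gene counts that the authors divided by 1 factor per library and rounded, as read from the values, since whole reads came back within a tolerance of 0.0061. The submitters' processing notes name STAR 2.7.1a and featureCounts 1.6.2, and genome builds of human and mouse without their roles. The normalisation step, annotation and strand setting are not given in the sources used here. Gene positions and exon lengths came from GENCODE 29 and promoter windows from RefSeq.

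limma 3.58.1 (R 4.3.3; lmFit, eBayes with trend) was fitted to log2(value + 1) of the 18828 genes that reached 10 normalised counts in 2 or more libraries. All 11 libraries entered with a mean per group, leaving 6 residual degrees of freedom and 9.21 from the prior. The Benjamini-Hochberg adjustment ran over these genes. Fold changes of means are ratios of normalised counts, and log2 changes understate low genes. No fold was given against a group at 0 where the other mean lay below 3 reads per library, and ratios to a single read carry an exact conditional binomial 95% interval. Per-kb levels used the union of annotated exons, which is long where models retain introns. edgeR 4.0.16 and DESeq2 1.42.0 were alternatives on recovered reads, beside other pseudocounts, filters, scalings, a replicate block and leaving out libraries. The procedure was tested on simulated data.

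The 10 members, the gene lists and the markers were chosen with earlier results of these data known. All members were named. Of each list, at most the 3 called genes with the largest change against GFP were to be named. Several cell type markers and the weakly measured ALDH1A2 and ALDH8A1 were named outside this rule. Some genes that this rule names are not reported here.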

Additional observations from a re-analysis of the deposited data

How the results depend on the processing

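Over 23 alternatives, 17 of the 21 member changes called against GFP kept their direction and their call, and 4 lost the call under 1 setting each, as given with ALDH1A1, ALDH7A1, ALDH9A1 and ALDH18A1. Of 40 called between factor lines 30 kept it. Members called against GFP ranged over 6 to 8 in Oct4, 6 to 8 in Sox2, 2 to 4 in Klf4 and 4 to 5 in OSK. Counts of all genes called stayed within 1.5 times, except OSK against Klf4, with 4049 genes, 2580 without Klf4 replicate 1 and 2539 without OSK replicate 2 (2539 to 4918 over libraries left out). The replicate numbers did not pair the libraries: deviations of same-numbered libraries correlated at -0.07 to 0.04, except 0.41 between GFP and OSK. With a replicate block 8, 7, 3 and 4 members were called in Oct4, Sox2, Klf4 and OSK, the added one being ALDH3A1 in Oct4 (-2.02, limma adjusted p = 0.0375). ALDH3A1 in Sox2 was -1.75 with a pseudocount of 5 and -3.85 with 0.5. ALDH1L2 and ALDH3A1 have no value under a minimum mean CPM of 1. Directions turned only for changes that were not called, and the cause was not tested. With GFP replicate 1 and OSK replicate 1 left out together, an alternative chosen after seeing the data, the log2 changes were -0.036 for ALDH2 in Sox2, 0.48 for ALDH3A1 and 0.014 for ALDH3A2 in Klf4, and 0.86 for ALDH1L2 and -0.079 for ALDH18A1 in OSK. With TMM over all features they were 0.011 for ALDH9A1 in Klf4, 0.0030 for ALDH7A1 in OSK and -0.027 for ALDH2 in OSK over Sox2. With 1 library left out the ranges were -0.15 to 0.023 for ALDH18A1 in Oct4, -0.036 to 0.066 for ALDH2 in Sox2, and in Klf4 -0.89 to 0.48 for ALDH3A1, -0.15 to 0.043 for ALDH3A2 and -0.0099 to 0.28 for ALDH7A1. In OSK they were -0.75 to 0.50 for ALDH1L2, -0.024 to 0.079 for ALDH2 and -0.019 to 0.16 for ALDH18A1. Between lines they were -0.44 to 0.33 for ALDH1A1 (OSK, Oct4), -0.030 to 0.055 for ALDH2 (OSK, Sox2), -0.070 to 1.18 for ALDH1L2 (OSK, Klf4), -0.063 to 0.25 for ALDH1L2 (Oct4, Sox2) and -0.18 to 0.053 for ALDH1B1 (Sox2, Klf4). With 2 libraries per factor line, changes of ALDH1A1, ALDH1L2 and ALDH3A1 rest on under 100 reads per library.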

Other observations

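For the 3 abundant members with the widest range of group means, the tested genes of most similar pattern were listed by Pearson's r of log2(value + 1) over the 11 libraries, among 11385 candidates with at least 100 normalised counts in a group. For ALDH1A3 they were SLC7A8 (r = 0.987), EPAS1 (0.985) and NOB1 (0.984). SLC7A8, an amino acid transporter, had mean levels of 26747 normalised counts in GFP, 17400 in Klf4, 10417 in OSK, 6596 in Oct4 and 1514 in Sox2, the same order as ALDH1A3. EPAS1, a hypoxia-inducible factor, ran from 6606 in GFP to 1952 in Sox2. For ALDH3A2 they were BMP4 (0.992), LINC02159 (0.978) and SLAMF7 (0.977). BMP4, a secreted growth factor, had 2292 in GFP, 2109 in Klf4, 1468 in OSK, 1255 in Oct4 and 874 in Sox2. For ALDH1B1 they were STX3 (0.987), SLFN5 (0.986) and SLC25A25 (0.985), and SLC25A25, a mitochondrial carrier, was also lowest in OSK (459) and highest in GFP (954). These are descriptions over libraries that share lines and scaling, chosen as the highest of many.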
